A study of Mus musculus with 8 samples.

Results

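Male mouse embryonic stem (ES) cells depleted of Jmjd2c were compared with the same kind of cells depleted of Jmjd2b, using 5 of the 8 arrays of the study. The comparison took every array with either knockdown, which were 2 with a short hairpin RNA against Jmjd2c and 3 with a hairpin against Jmjd2b. The other 3 arrays, of cells with a hairpin against GFP, were used as a reference level for each gene and in the estimate of spread. All 8 samples were ES cells of strain 129S4/Svjae with an agouti phenotype, grown in ES cell medium containing leukemia inhibitory factor (LIF), infected with lentivirus, selected with puromycin and passaged a few times before RNA was taken. The study's title names the role of both enzymes in the identity of these cells. The labels do not say how many hairpins were used per gene, whether feeder cells were present, or whether replicates came from separate infections. The p-values are therefore set only by how far these arrays differ from one another, and that spread may be no more than technical. After probe sets with exactly 1 gene symbol were kept and each gene was given by its brightest probe set, 18193 genes were compared. Differences are Jmjd2c knockdown minus Jmjd2b knockdown on a scale of log2(intensity + 16), each with its standard error (SE). A gene was called when its adjusted p in limma was under 0.05.

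Jmjd2b and Jmjd2c, which current gene tables name Kdm4b and Kdm4c, belong to the KDM4 family of histone demethylases. These enzymes use iron and 2-oxoglutarate to remove methyl groups from lysine 9 of histone H3, a mark of silent chromatin, and from lysine 36, a mark of transcribed gene bodies. ES cells in LIF medium resemble the early epiblast of the embryo. They hold a naive pluripotent state, kept by factors such as Nanog, Esrrb, Klf4 and Prdm14, and when they leave it they pass through a formative state marked by Fgf5, Otx2 and Dnmt3b before they form germ layers.

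The genes on which the comparison turned were first set beside their promoters. Windows of 300 bases, running from 250 bases before the annotated start to 50 bases after it, were taken from RefSeq on GRCm38.p6 for 14368 of the measured genes. Where a gene had several such windows, the most upstream was used. Cdx2, a homeobox gene of trophectoderm and posterior embryo, and Krt8, a simple epithelial keratin, are shown because they were among the genes most reduced in the Jmjd2c knockdown relative to the Jmjd2b knockdown. Sp5, a zinc finger gene activated by Wnt signalling, is shown for its TCF/LEF core. Phf11d, a PHD finger gene, stands for the genes that were higher. Capitals mark the searched motifs, which were CTTTGAT (the TCF/LEF core) and TATAAA (the TATA box) on either strand.
Cdx2, chr5:147307200-147307499, minus strand: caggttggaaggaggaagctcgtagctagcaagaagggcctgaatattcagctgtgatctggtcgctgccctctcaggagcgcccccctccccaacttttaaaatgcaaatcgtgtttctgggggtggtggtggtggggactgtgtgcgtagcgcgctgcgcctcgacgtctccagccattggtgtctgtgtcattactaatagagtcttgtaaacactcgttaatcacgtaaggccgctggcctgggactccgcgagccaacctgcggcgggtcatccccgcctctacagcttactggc
Sp5, chr2:70474673-70474972, plus strand: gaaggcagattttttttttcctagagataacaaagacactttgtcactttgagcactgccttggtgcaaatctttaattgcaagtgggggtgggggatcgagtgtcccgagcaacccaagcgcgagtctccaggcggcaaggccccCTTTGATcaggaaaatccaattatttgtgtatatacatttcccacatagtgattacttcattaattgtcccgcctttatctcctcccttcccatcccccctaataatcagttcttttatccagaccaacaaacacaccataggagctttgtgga
Krt8, chr15:102004293-102004592, minus strand: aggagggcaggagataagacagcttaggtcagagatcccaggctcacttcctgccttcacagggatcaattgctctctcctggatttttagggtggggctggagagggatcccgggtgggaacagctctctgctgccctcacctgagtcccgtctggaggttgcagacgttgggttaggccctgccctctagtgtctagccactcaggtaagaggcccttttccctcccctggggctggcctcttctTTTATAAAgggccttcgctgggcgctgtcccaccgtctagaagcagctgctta
Phf11d, chr14:59365441-59365740, minus strand: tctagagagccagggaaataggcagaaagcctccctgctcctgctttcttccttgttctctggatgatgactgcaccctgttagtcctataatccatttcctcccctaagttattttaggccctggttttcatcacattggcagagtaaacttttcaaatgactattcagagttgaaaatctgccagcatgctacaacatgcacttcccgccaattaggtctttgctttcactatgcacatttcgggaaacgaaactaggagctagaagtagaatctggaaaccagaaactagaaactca
The Sp5 window held 1 TCF/LEF core, and the Krt8 window held overlapping TATA box matches on both strands. The Krt8 matches began at positions -1 and -3, so they lay at the annotated start itself. Neither motif was found in the windows of Cdx2 and Phf11d. Over all windows, 2.91% held the TCF/LEF core and 9.86% held the TATA box. Of the called genes with a window, the TCF/LEF core was found in 1 of 43 that were lower (Sp5) and 2 of 22 that were higher (Lamp2 and Taf9b), and the TATA box in 2 of 43 and 2 of 22. The windows of Cdx2, Sp5, Krt8 and Phf11d held 18, 6, 6 and 3 CpG dinucleotides. The median was 17 over all windows, 18 for the lower genes and 18.5 for the higher ones. These matches describe letters in a short window and show no binding.

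The arrays carried features that touch every result below. Array medians lay between 44.7 and 46.6, and between 23.9% and 25.4% of probe sets had an intensity under 16. The 2 Jmjd2c arrays stood apart from each other: 703 genes differed between them by 2-fold or more, against 33 to 167 in other pairs of arrays of 1 group. Across probe sets they correlated at 0.981, the Jmjd2b arrays at 0.990 to 0.993 with one another, and arrays of different knockdowns at 0.981 to 0.985. Values identical to the last digit joined both Jmjd2c arrays to Jmjd2b array 3 (0.599% to 0.621% of probe sets) and Jmjd2b array 1 to control array 3 (0.459%), and Jmjd2b array 2 shared a floor at exactly 1 with control arrays 1 and 2. A comparison within the first of these sets, with the set as a block, is given as the within-set difference beside the largest results and beside many of those that it moves by more than 1.5 times, and it sets both Jmjd2c arrays against Jmjd2b array 3 alone. The actin 3' to 5' ratio, which rises with RNA degradation, was 1.42, 1.36 and 1.31 in the Jmjd2b arrays and 1.48 and 1.43 in the Jmjd2c arrays, and its part in the results was not tested. All 6 ES cell markers were strongly expressed. They summed to 40200 to 43500 in the Jmjd2b arrays, 43800 and 45100 in the Jmjd2c arrays and 49100 to 50000 in the controls. Of 8 fibroblast markers, 6 were below the median gene on every array. The 8 summed to 342 to 368 in the Jmjd2b arrays, 378 and 434 in the Jmjd2c arrays and 606 to 662 in the controls. In such bulk samples, fewer cells that express a gene and less RNA per cell cannot be told apart.

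The targeted transcripts were examined first. Kdm4b (chromosome 17) had intensities of 50.3, 29.3 and 17.0 in the Jmjd2b knockdown, 245 and 285 in the Jmjd2c knockdown and 421, 339 and 643 in the controls. Its difference between the knockdowns was 2.60 ± 0.31 (SE; limma adjusted p = 0.017), and 3.08 within the set. The Jmjd2b knockdown mean was 6.89% of the control mean and the Jmjd2c knockdown mean 56.6%, so the 2 knockdowns did not overlap and neither reached the control level. Leaving out Jmjd2b array 2 gave 2.58 with an adjusted p of 0.091 in limma.

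Kdm4c (chromosome 4) gave 142 and 469 in the 2 Jmjd2c arrays, against 752, 800 and 650 in the Jmjd2b arrays and 1330, 1300 and 1210 in the controls. As shares of the control mean these were 11.1% and 36.7% in the Jmjd2c arrays and 50.8% to 62.5% in the Jmjd2b arrays. Both Jmjd2c arrays lay below all Jmjd2b arrays, but they lay far from each other, and the difference of -1.43 ± 0.36 did not pass (limma adjusted p = 0.114). Without Jmjd2c array 1 the difference was -0.62 (adjusted p = 0.0383), and without array 2 it was -2.24 (adjusted p = 0.000336). In both of those fits limma assumes that the lone Jmjd2c array varies like the other groups. The depletion of Kdm4c in the Jmjd2c arrays thus spanned a wide range, and the comparison below averages over it.

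Kdm4a, a family member no hairpin was aimed at, had intensities of 608, 625 and 542 in the Jmjd2b arrays, 808 and 979 in the Jmjd2c arrays and 953, 1050 and 1130 in the controls. The knockdowns did not overlap, and the difference of 0.58 ± 0.13 did not pass (limma adjusted p = 0.093). It was 0.71 without Jmjd2c array 1, a fit with a lone Jmjd2c array. Kdm4d, which lies near the dim end of the array, was at 10.5 to 17.8 in the Jmjd2b arrays and 19.5 and 14.3 in the Jmjd2c arrays. Of 21 other JmjC demethylases, 0 were called and 6 were lower in every Jmjd2c array, where 13.7% of all genes were. Among them, Kdm2b, which recruits a Polycomb complex to CpG islands, had a difference of -0.44 that did not pass. Jmjd1c had one of -0.39 at its brightest probe set, which did not pass either. Its dimmer probe sets gave -0.92 and -1.13, and both passed when all probe sets were tested (limma adjusted p = 0.0323 and 0.0363).

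**Figure D1:**
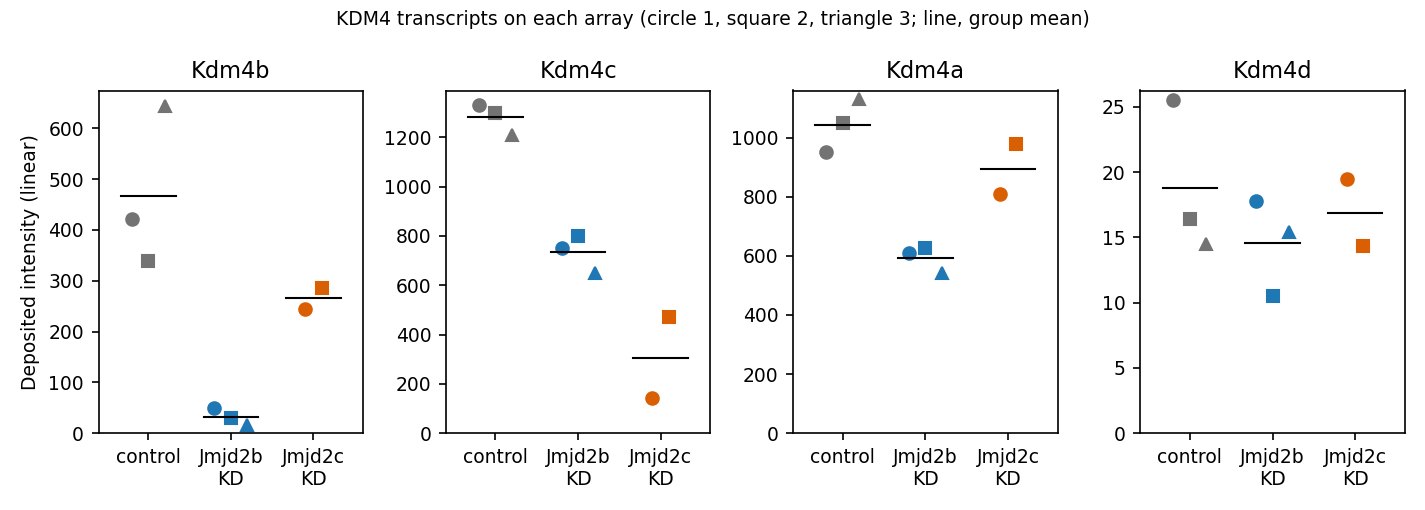
Deposited linear intensity (vertical axis, starting at 0) of the 4 KDM4 transcripts on each array of the control, Jmjd2b knockdown and Jmjd2c knockdown groups; points are arrays and lines are group means. Kdm4b lay at 17.0 to 50.3 in the Jmjd2b knockdown, while the 2 Jmjd2c arrays differed in Kdm4c, at 142 and 469.

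Across the array, 85 of 18193 genes (0.467%) were called. Of these, 25 (0.137%) were higher and 60 (0.330%) were lower in the Jmjd2c knockdown. At so low a share, most gene lists of the sizes used below would hold no called member, so the lack of a call sets no list apart. At least 2-fold differences were found for 55 called genes, 11 higher and 44 lower. In all 85 both Jmjd2c arrays lay on 1 side of the 3 Jmjd2b arrays, which also held for 13.4% of all genes in the upward and 13.7% in the downward direction. The median difference over all genes was 0.0, and 2368 genes (1098 higher and 1270 lower) had an unadjusted p under 0.05. The controls entered the estimate of spread, and with only the 5 knockdown arrays limma called 2 genes, Anxa1 and Cdx2. The number of calls also moved with single arrays. It was 35, 28 and 29 without control arrays 1, 2 and 3, and 46, 2 and 67 without Jmjd2b arrays 1, 2 and 3, of which the 2 were Anxa1 and Cdx2. Leaving out either Jmjd2c array leaves a lone array in that group, and the wide gap between the 2 then drops out of the spread. Counts from those fits are therefore not given. Within the set of arrays that share values, the medians were -1.37 and 0.93 for the lower and higher genes, against -1.31 and 0.96 over all arrays. Direction could not change there, since both Jmjd2c arrays lay on 1 side of Jmjd2b array 3 in all 85. With the set as a block, 5 were called (Anxa1, Cdx2, Cxcl10, Kdm4b and Prss23).

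The control arrays gave each called gene a reference level. For 77 of the 85 genes the control mean was nearer to the Jmjd2c knockdown than to the Jmjd2b knockdown, and over all genes this held for 59.7%. For 37 of the 60 lower genes and 18 of the 25 higher genes, the control lay beyond the Jmjd2c knockdown, so that the Jmjd2b knockdown was the farther of the 2 from the control in the same direction. For 22 lower and 7 higher genes it lay between them. Zbtb12, a zinc finger gene that was noticed after its values were seen, was the only called gene with the control beyond the Jmjd2b side.

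**Figure D2:**
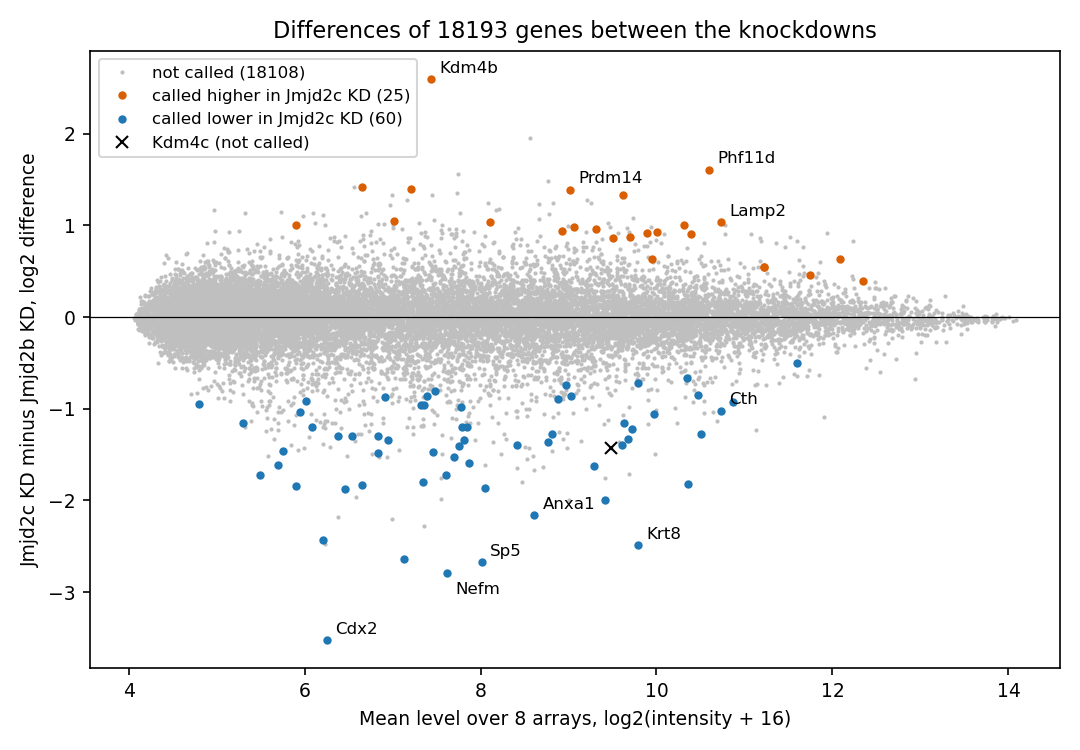
Difference between the knockdowns (vertical axis, log2) against mean level over 8 arrays (horizontal axis, log2(intensity + 16)), 1 point per gene. The 25 genes called higher and 60 called lower are coloured, and Kdm4c (cross) was not called despite a difference of -1.43.

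Cdx2 differed most of all called genes. Its intensities were 331, 532 and 464 in the Jmjd2b arrays, 28.6 and 18.6 in the Jmjd2c arrays and 5.63, 5.94 and 1.14 in the controls. It was thus 11.5-fold lower in the Jmjd2c knockdown on this scale, a difference of -3.52 ± 0.22 (limma adjusted p = 0.000265), and -3.61 within the set. The 2 Jmjd2c arrays were close to each other and more than 10 times below each Jmjd2b array, and both lay above all controls. A dimmer Cdx2 probe set gave -1.13, which did not pass.

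Sp5 was at 1180, 1770 and 1290 in the Jmjd2b arrays, 320 and 129 in the Jmjd2c arrays and 23.2, 54.5 and 36.9 in the controls. The difference was -2.67 ± 0.35 (limma adjusted p = 0.019), and -2.57 within the set. Wnt4, a Wnt ligand, had means of 170 ± 35.6 (SD, n = 3) in the Jmjd2b knockdown and 58.9 ± 7.24 (SD, n = 2) in the Jmjd2c knockdown, and fell by 1.30 on the log2 scale (limma adjusted p = 0.0231). Another Wnt4 probe set of similar level gave -0.21, which did not pass. All 3 genes had their lowest level in the controls, an intermediate one in the Jmjd2c knockdown and the highest in the Jmjd2b knockdown. They were the called members of a list of 28 measured Wnt pathway genes, 3 lower and 0 higher, with a median difference of -0.14. Both Jmjd2c arrays lay below all Jmjd2b arrays for 11 of the 28 and above them for 4, where 13.7% and 13.4% of all genes were. The ligand Wnt3 (86.5, 117 and 68.5 against 37.0 and 29.3) and the feedback inhibitor Axin2 (287, 377 and 173 against 146 and 102) had differences of -1.10 and -1.03 that did not pass, and that of Axin2 was -0.45 within the set. In the other direction the secreted Wnt antagonist Sfrp1 had a difference of 1.24 (1.92 within the set) and the receptor Fzd5 one of 0.45, neither of which passed. Tnfrsf19, a receptor of the tumor necrosis factor family, was at 450, 658 and 536 against 165 and 142, a called difference of -1.72 ± 0.28 (limma adjusted p = 0.0326). Its dimmer probe sets gave 0.01 and -0.45, neither of which passed.

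The primitive streak, where mesoderm forms, uses several of the same genes. Of 21 measured mesoderm and primitive streak genes, Cdx2 alone was called, and 6 were lower and 0 higher in every Jmjd2c array, where 13.7% and 13.4% of all genes were. The median was -0.29, and -0.18 within the set. Eomes, a T-box factor of streak and trophoblast, gave 890, 1160 and 445 in the Jmjd2b arrays and 227 and 243 in the Jmjd2c arrays, where the controls were at 220, 163 and 125. Its difference of -1.65 did not pass (limma adjusted p = 0.0727) and was -0.88 within the set. Fgf8, a ligand secreted by the streak, was at 397, 597 and 263 against 141 and 121, with controls of 6.0 to 10.1. Its difference of -1.49 narrowly missed (limma adjusted p = 0.0501) and was -0.93 within the set. For both genes the highest Jmjd2b array was more than 2 times the lowest.

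Simple epithelial keratins formed a further group. Krt8 had intensities of 2120, 2360 and 3610 in the Jmjd2b arrays, 326 and 631 in the Jmjd2c arrays and 479, 480 and 356 in the controls. Its difference was -2.49 ± 0.29 (limma adjusted p = 0.0152) and -2.94 within the set, and its other probe sets gave -2.69 and -2.74. Krt18, the keratin with which Krt8 pairs in filaments, was at 2340, 2770 and 4830 against 715 and 1080, with controls of 617, 814 and 639, a difference of -1.82 ± 0.28 (adjusted p = 0.0315). The Jmjd2c arrays overlapped the controls for Krt8 and, in array 1, for Krt18, whereas every Jmjd2b array was far above them. Dsp, the desmosome protein that anchors keratin filaments, was noticed after its values were seen. It was at 1090, 1300 and 1320 in the Jmjd2b arrays and 595 and 501 in the Jmjd2c arrays, with controls of 539 to 677, a difference of -1.15 ± 0.15 (limma adjusted p = 0.019).

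Cdx2, Krt8 and Krt18 were also the called members among 20 measured trophoblast genes, the cells that form the placenta. The list as a whole had a median of 0.05, with 5 members lower and 5 higher in every Jmjd2c array, against 13.7% and 13.4% of all genes. Other trophoblast factors stood otherwise: Tfap2c had a difference of 0.49 and Rhox9 of 0.90, neither called. The 3 measured markers listed for trophoblast cells had a summed intensity of 69.6, 82.8 and 89.0 in the Jmjd2b arrays, 64.1 and 152 in the Jmjd2c arrays and 37.0 to 43.8 in the controls. Gata3, among them, was at 8.75 and 109 in the 2 Jmjd2c arrays.

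Among 22 cell adhesion genes, 0 were called, 9 were lower and 1 was higher in every Jmjd2c array, where 13.7% and 13.4% of all genes were, and the median was -0.21. The tight junction gene Cldn6 gave 715, 1240 and 2010 in the Jmjd2b arrays and 358 and 237 in the Jmjd2c arrays, with controls of 189, 423 and 288. Its difference of -2.0 did not pass (limma adjusted p = 0.0682). Of 22 genes of the extracellular matrix and basement membrane, the integrin subunit Itga3 was called, at 296, 344 and 415 against 128 and 129, a difference of -1.34 ± 0.18 (limma adjusted p = 0.0202). Much dimmer Itga3 probe sets gave 0.17 and -0.42, neither of which passed. The laminin chain Lama5 and the matrix protein Sparc had differences of -1.07 and -0.62, and the basement membrane linker Nid1 one of 0.75, none of which passed. Another Nid1 probe set above the median gene gave -0.67, also without passing. The list's median was -0.23. The fibroblast markers named above had no called member, and of 19 genes in a wider fibroblast list 0 were called, with a median of -0.10.

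Neurofilament genes, which encode intermediate filaments of neurons, were also called. Nefm gave 700, 1060 and 1480 in the Jmjd2b arrays, 190 and 96.6 in the Jmjd2c arrays and 30.3, 29.8 and 23 in the controls. The difference was -2.79 ± 0.31 (limma adjusted p = 0.0152), and -3.29 within the set. Nefl was at 3400, 4220 and 4570 against 1450 and 1870, with controls of 504, 523 and 372, and it fell by 1.28 ± 0.18 on the log2 scale (limma adjusted p = 0.0215). As for Cdx2, the Jmjd2c arrays lay between controls and Jmjd2b arrays, without overlap on either side. Both are members of a list of 22 measured neural genes, of which the other 20 were not called and whose median was -0.11, and -0.29 within the set. Nes, an intermediate filament of neural progenitors, was at 252, 258 and 341 against 139 and 107, with a difference of -1.11 that narrowly missed (limma adjusted p = 0.0501). Pax6, a regulator of neural fate, had a difference of 0.44 with overlapping arrays (-0.05 within the set), and Sox11, another, was at 1410 and 401 in the 2 Jmjd2c arrays.

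**Figure D3:**
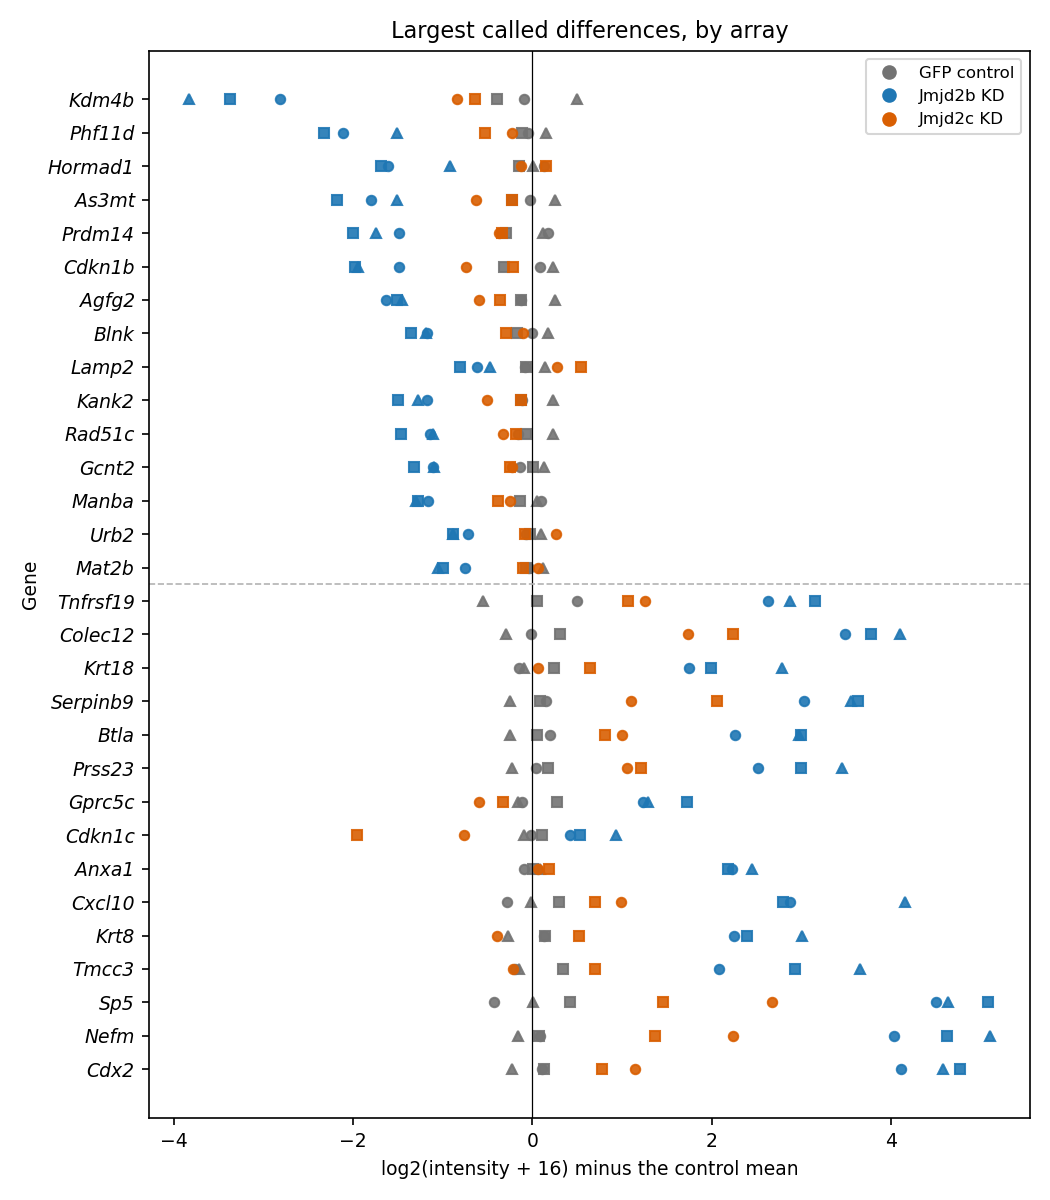
Values of the 15 largest called differences in each direction among genes whose higher knockdown mean exceeded the median gene, 1 line per gene, as log2(intensity + 16) minus the control mean (horizontal axis); circles, squares and triangles are arrays 1, 2 and 3 of each group. For genes from Cdx2 to Tnfrsf19 the Jmjd2b arrays lie to the right of both Jmjd2c arrays, and for those from Kdm4b to Mat2b to the left.

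Among genes of the actin cytoskeleton, Tpm2, a tropomyosin that binds along actin filaments, had values of 1410, 1300 and 2000 in the Jmjd2b arrays, 790 and 677 in the Jmjd2c arrays and 756, 767 and 786 in the controls. Its difference was -1.06 ± 0.17 (limma adjusted p = 0.0326), although 1 of its 3 other probe sets gave 0.02. Tpm4 and Csrp1, an actin-bundling LIM protein, were noticed after their values were seen, with called differences of -0.85 and -1.22. Among 18 measured smooth muscle contractile genes Tpm2 alone was called. Yet both Jmjd2c arrays were below all Jmjd2b arrays for 14 of the 18 and above them for 0, where 13.7% of all genes were below. The median was -0.59, and it was -0.53 and -0.58 for the Jmjd2c arrays taken singly and -0.89 within the set. Acta2, smooth muscle actin, was at 4000, 4140 and 5170 against 2770 and 2570, with controls of 1400 to 1800, and its difference of -0.72 narrowly missed (limma adjusted p = 0.0501). Cald1, of the same list, had a difference of -1.05 at its brightest probe set, which did not pass. Its other probe sets ran from -1.52 to 0.05. The one at -1.52 passed when all probe sets were tested (limma adjusted p = 0.0184). Tagln, an actin-binding protein, was at 2200, 1990 and 8210 in the Jmjd2b arrays and 917 and 1010 in the Jmjd2c arrays, where array 3 of the Jmjd2b knockdown stood far above the others. That array was also highest for Cnn1 (389, 283 and 1680) and Myl9 (592, 603 and 2340), so the spread in this group was wide. Against that array alone, the within-set differences of Tagln, Cnn1 and Myl9 were -3.07, -3.80 and -2.61, and over all arrays they were -1.76, -2.28 and -1.32, none of which passed.

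YAP and TEAD targets, which answer to cell shape and density, had 0 of 18 measured members called and a median of -0.41. The median differed between the 2 Jmjd2c arrays, at -0.73 and -0.08. Ccn2, a matricellular protein and common readout of YAP, was at 2560, 3500 and 4460 in the Jmjd2b arrays and at 1470 and 4390 in the Jmjd2c arrays, so that array 2 lay within the Jmjd2b range. Its difference was -0.42, and -0.81 within the set, and did not pass. Amot, which binds YAP, was at 934, 1540 and 910 against 650 and 411, a difference of -1.06 that did not pass (limma adjusted p = 0.115).

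Several called genes act in immunity. Cxcl10, a chemokine induced by interferon, gave 184, 173 and 471 in the Jmjd2b arrays, 38.3 and 28.2 in the Jmjd2c arrays and 6.35, 17.5 and 11.1 in the controls. Its difference was -2.43 ± 0.37 (limma adjusted p = 0.0267), and -3.31 within the set. Tapbp, or tapasin, which loads peptides onto MHC class I, was at 1600, 2330 and 1620 against 631 and 735, with controls of 323, 430 and 291, a difference of -1.40 ± 0.20 (adjusted p = 0.0231). Serpinb9, an inhibitor of granzyme B, was at 242, 375 and 356 against 51.8 and 116, and Btla, an inhibitory receptor of lymphocytes, at 104, 184 and 181 against 34.1 and 28.0. The 2 were called with differences of -1.83 and -1.84. All 4 genes lay lowest in the controls.

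Tapbp was the called member of 14 measured MHC class I antigen processing genes. Of the 14, 8 were lower and 0 higher in every Jmjd2c array, where 13.7% and 13.4% of all genes were, and the median was -0.59. It was -0.80 for Jmjd2c array 1 and -0.29 for array 2, and -0.41 within the set. The proteasome subunit Psmb8 was at 222, 376 and 389 in the Jmjd2b arrays but 30.7 and 143 in the Jmjd2c arrays, a difference of -1.96 that did not pass (limma adjusted p = 0.0996). The light chain B2m was at 1210, 1470 and 1350 against 588 and 1030. For both genes array 1 was lower than array 2. In a list of 25 interferon response genes, 0 were called and the median was -0.14, and -0.0 within the set. The RNA sensor Ifih1 had a difference of -1.22 (adjusted p = 0.0501) and the membrane protein Ifitm2 one of 0.48, and neither passed. Of 13 blood and immune cell markers, 0 were called, and 4 of a core set of 6 were below the median gene on every array. The summed intensity of those 6 was 281 to 394 in the Jmjd2b arrays, 559 and 407 in the Jmjd2c arrays and 632 to 895 in the controls. Its part in these results was not tested.

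Anxa1, a calcium-dependent phospholipid-binding protein, shared the smallest adjusted p with Cdx2. It was at 968, 942 and 1140 in the Jmjd2b arrays and at 205 and 224 in the Jmjd2c arrays, and the latter were close to the controls of 181, 196 and 208. The difference was -2.16 ± 0.14 (limma adjusted p = 0.000265), and -2.33 within the set. Prss23, a secreted serine protease, gave 556, 783 and 1080 against 191 and 215, a difference of -1.86 ± 0.25 (limma adjusted p = 0.019). Gprc5c, an orphan receptor, was at 139, 202 and 145 against 27.5 and 36.3, below the controls of 42.8 to 63.3. Its difference was -1.88, while a dimmer Gprc5c probe set gave -0.03 without passing. Colec12, a scavenger receptor, and Tmcc3, a membrane protein of the endoplasmic reticulum, were called with differences of -1.80 and -2.64. Tmcc3 stood at 38.6 and 86.7 in the Jmjd2c arrays, around the controls of 39.2 to 64.2.

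Cell cycle inhibitors of 1 family were called in opposite directions. Cdkn1c (p57), an imprinted gene on chromosome 7, was at 961, 1040 and 1380 in the Jmjd2b arrays, 415 and 172 in the Jmjd2c arrays and 706, 774 and 670 in the controls. It fell by 1.99 ± 0.29 on the log2 scale (limma adjusted p = 0.0241), and the controls lay between the knockdowns. Cdkn1b (p27), on chromosome 6, was at 472, 330 and 337 in the Jmjd2b arrays, 801 and 1160 in the Jmjd2c arrays and 1430, 1080 and 1580 in the controls. It rose by 1.33 ± 0.22 (limma adjusted p = 0.0357). The other 21 of 23 genes of G1 and S phase were not called, and the list's median was 0.01, and -0.03 within the set. In a list of 20 genes of G2 and mitosis 0 were called, the median was 0.14, and 10 members were higher in every Jmjd2c array, where 13.4% of all genes were. Nusap1, a spindle protein, was the member with the smallest p, at 2530, 2310 and 2400 against 2880 and 3220, a difference of 0.34 that did not pass.

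Cdkn1c was also the called member of 24 measured imprinted genes, whose median difference was -0.49. It was -0.51 and -0.30 for Jmjd2c arrays 1 and 2, and 10 members were lower and 1 higher in every Jmjd2c array, where 13.7% and 13.4% of all genes were. The noncoding RNA Meg3 was at 3290, 3370 and 4510 against 2360 and 2080, and Gnas at 5000, 4950 and 5000 against 2660 and 3860. Their differences of -0.73 and -0.63 did not pass. Plagl1, a zinc finger gene of the group, was at 1290, 1950 and 1440 in the Jmjd2b arrays but at 224 and 2350 in the 2 Jmjd2c arrays. Phlda2 split them the other way, at 2690 and 387, with 2350, 2180 and 2840 in the Jmjd2b arrays.

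Growth signalling genes held further calls. Irs1, the adaptor of the insulin and IGF1 receptors, was at 386, 422 and 524 against 177 and 189, with controls of 99.0 to 122, a difference of -1.20 ± 0.16 (limma adjusted p = 0.0202). It was the called member of 15 IGF axis genes, of which 7 were lower and 0 higher in every Jmjd2c array, where 13.7% and 13.4% of all genes were. The list's median was -0.13, and -0.28 within the set. Irs2 had a difference of -1.15 that narrowly missed (limma adjusted p = 0.0501). Hmga2, a chromatin architectural protein and let-7 target, was at 889, 942 and 762 against 396 and 304, with controls of 221 to 275, a called difference of -1.27 ± 0.16 (adjusted p = 0.019). Of 22 FGF and ERK genes 0 were called, 10 were lower and 0 higher in every Jmjd2c array, where 13.7% and 13.4% of all genes were, and the median was -0.25. The ERK phosphatase Dusp6, at 1560, 1800 and 1160 against 898 and 810, had a difference of -0.78 that did not pass, and of -0.43 within the set. Atf3, a stress-induced factor, was at 139, 126 and 143 against 64.8 and 70.2, below the controls of 95.1 to 119, and it was called with a difference of -0.87. Among 20 immediate early genes it was the called lower member and Btg1, an antiproliferative gene, the called higher one, with 0.55, although a dimmer Btg1 probe set gave -0.20. The median of that list was -0.41. Atf3 was also the called one of 21 ATF4 and CHOP stress response genes (median -0.13, and -0.20 within the set), and Hmga2 that of 19 genes of the MYC and let-7 network (median -0.07, and -0.11 within the set).

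Of 23 measured naive pluripotency genes, 13 were higher and 1 lower in every Jmjd2c array, where 13.4% and 13.7% of all genes were, and the median was 0.47. The median was 0.54 and 0.39 for Jmjd2c arrays 1 and 2, 0.33 within the set, and 0.69 to 0.93 for the controls against the Jmjd2b mean. Of the list, 1 gene was called, Prdm14, a regulator that restrains FGF signalling and DNA methylation in naive cells. It gave 294, 201 and 243 in the Jmjd2b arrays, 656 and 670 in the Jmjd2c arrays and 966, 691 and 928 in the controls. The difference was 1.39 ± 0.19 (limma adjusted p = 0.019), and 1.39 within the set. The nuclear receptors Esrrb (936, 848 and 1030 against 1480 and 1390) and Nr5a2 (1880, 1550 and 1780 against 2680 and 2390) had differences of 0.61 and 0.55, with adjusted p of 0.0798 and 0.0775 in limma. For Esrrb the controls were higher still, at 2410 to 3180. Tbx3 had a difference of 0.97 (0.36 within the set), Tet2 of 0.69 and Klf4 of 0.34 (0.54 within the set), and none of these passed. Nanog, at 4180, 3870 and 2800 against 3910 and 4680, overlapped, with a difference of 0.26 (0.61 within the set) that did not pass.

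General pluripotency genes showed small differences. Pou5f1, or Oct4, was at 7780, 7640 and 8040 in the Jmjd2b arrays and 7410 and 7540 in the Jmjd2c arrays, a difference of -0.07 (-0.11 within the set). Sox2 had one of 0.12. Neither passed. Sall1, a zinc finger partner of Nanog, was the called gene among 19, at 1950, 1740 and 1890 against 2570 and 2900, a difference of 0.55 ± 0.09 (limma adjusted p = 0.0359). The Jmjd2c arrays lay around the controls of 2650 to 2890. The list's median was -0.01, and -0.11 within the set.

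In the formative and primed list, Krt18 was the called one of 19 measured genes, 6 were lower and 0 higher in every Jmjd2c array, where 13.7% and 13.4% of all genes were, and the median was -0.54. Fgf5 was at 730, 1340 and 1920 in the Jmjd2b arrays, 466 and 821 in the Jmjd2c arrays and 3.57, 17.4 and 6.77 in the controls. The knockdowns overlapped, and the difference of -0.98 did not pass (limma adjusted p = 0.322) and was -1.61 within the set. Dnmt3b, a DNA methyltransferase, was at 5840, 8130 and 10400 against 6160 and 2240, so that Jmjd2c array 1 lay among the Jmjd2b arrays and array 2 near the controls of 1420 to 2640. Pou3f1, or Oct6, showed the same split at 2720 and 458, beside 1810, 2980 and 5950. Otx2 did not follow the list, with 1330, 1530 and 2250 against 2370 and 2080, a difference of 0.41 that did not pass and was -0.02 within the set. The list's median was -0.25 for Jmjd2c array 1 and -0.60 for array 2, against -1.15 to -1.48 for the controls.

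**Figure D4:**
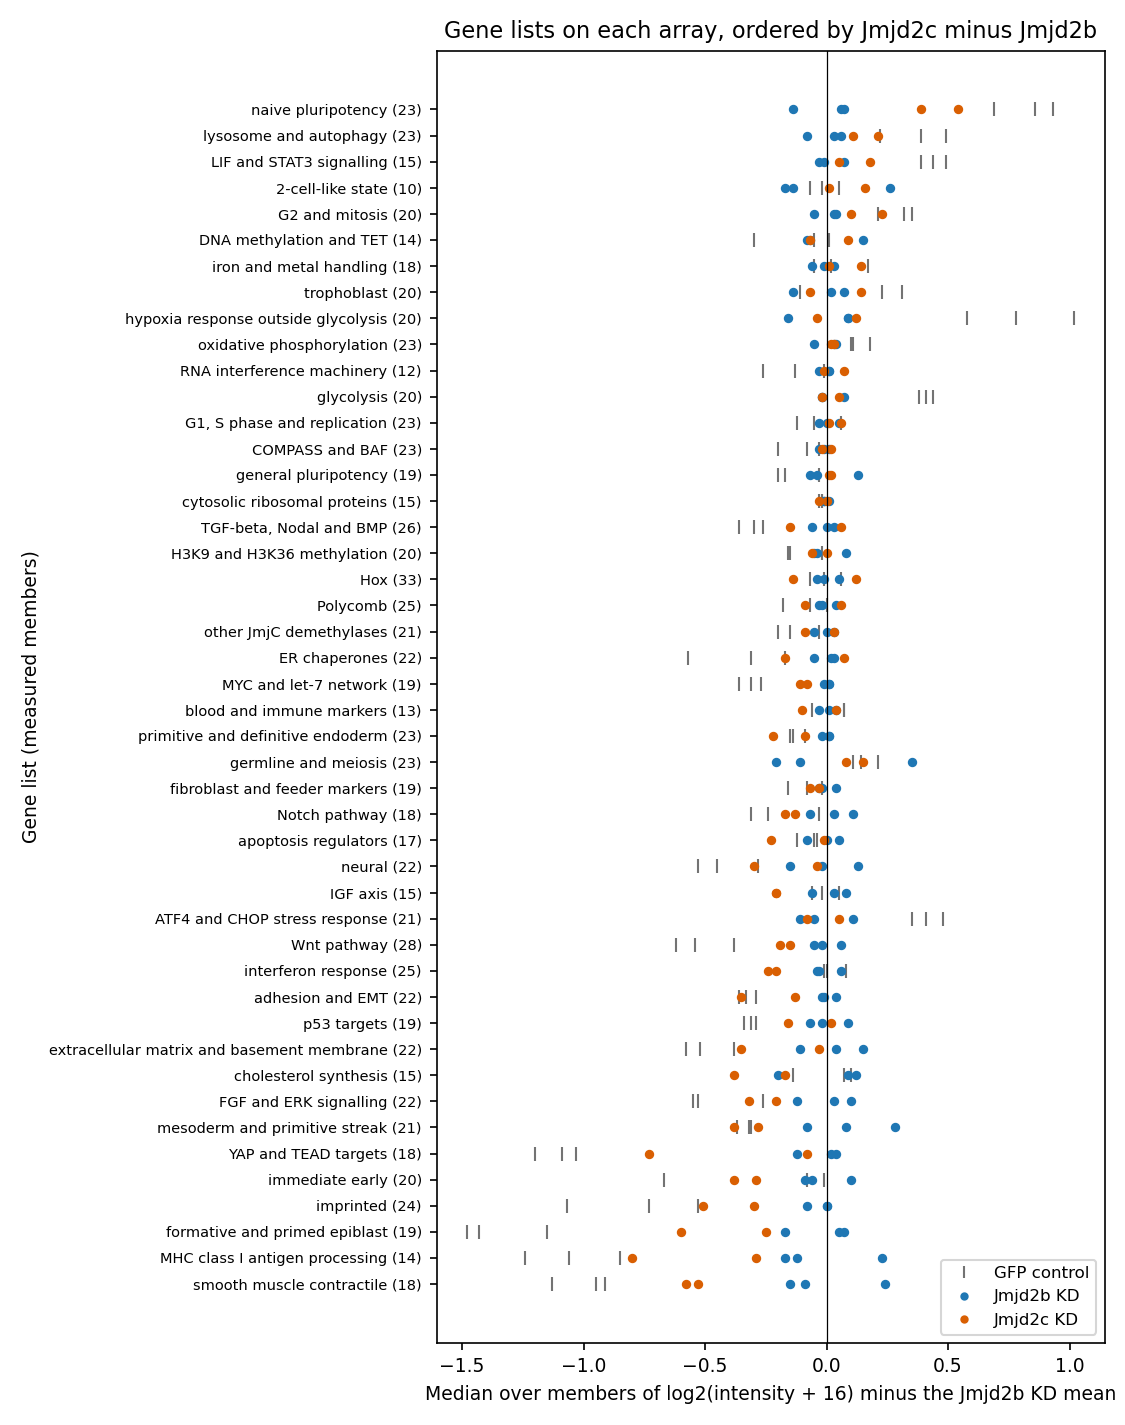
Median over the measured members of each gene list (count in brackets) of log2(intensity + 16) minus the Jmjd2b knockdown mean (horizontal axis), 1 point or tick per array, with lists ordered by their median difference. The naive list lies at 0.54 and 0.39 in the Jmjd2c arrays and the smooth muscle list at -0.53 and -0.58, both between the Jmjd2b arrays and the controls.

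Phf11d had the largest called increase after Kdm4b. It gave 624, 536 and 960 in the Jmjd2b arrays, 2350 and 1910 in the Jmjd2c arrays and 2670, 2540 and 3070 in the controls. The difference was 1.61 ± 0.21 (limma adjusted p = 0.019), and 1.13 within the set. Hormad1, a protein of the meiotic chromosome axis, was at 31.6, 29.1 and 60.5 against 117 and 145, and Rad51c, a homologous recombination gene, at 334, 264 and 340 against 596 and 664. Their differences were 1.42 and 0.98, both called, and that of Hormad1 was 0.93 within the set. In both genes the Jmjd2c arrays were near or within the control range. Hormad1 was the called member of 23 germline and meiosis genes, whose median was -0.08, and -0.28 within the set. In that list 4 were higher and 1 was lower in every Jmjd2c array, against 13.4% and 13.7% of all genes. Prdm1, a germ cell regulator, and Smc1b, a meiotic cohesin, had differences of 0.92 and 1.10 that did not pass, and that of Smc1b was 0.69 within the set.

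Lysosomal genes were called in both directions. Lamp2, a protein of the lysosomal membrane on chromosome X, gave 1200, 1050 and 1330 in the Jmjd2b arrays, 2250 and 2710 in the Jmjd2c arrays and 1750, 1770 and 2050 in the controls. The controls thus lay between the knockdowns. The difference was 1.04 ± 0.13 (limma adjusted p = 0.019) and 0.89 within the set, and the gene's other probe sets gave 0.47 to 1.0. Manba, a lysosomal mannosidase, was at 657, 605 and 595 against 1250 and 1140, a called difference of 0.93. Scpep1, a serine carboxypeptidase noticed after its values were seen, was at 4110, 4180 and 3900 against 5330 and 5340, a called difference of 0.39. In the other direction, the lysosomal protease gene Ctsc was also noticed after its values were seen. It was at 513, 612 and 518 against 244 and 162, a called difference of -1.39 ± 0.22 (limma adjusted p = 0.0322). Much dimmer Ctsc probe sets gave -0.39 and 0.04, neither of which passed. In the list of 23 lysosome and autophagy genes Lamp2 was the called member, 7 were higher and 0 lower in every Jmjd2c array, where 13.4% and 13.7% of all genes were, and the median was 0.18, and 0.10 within the set.

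Enzymes and adaptors made up most of the other large increases. As3mt, an arsenic methyltransferase, was at 57.7, 40.5 and 73.8 against 150 and 202. Mat2b, a regulatory subunit of methionine adenosyltransferase, was at 1000, 844 and 812 against 1770 and 1580. Both were called, with differences of 1.40 and 0.91. Gcnt2, a glycosyltransferase, Blnk, an adaptor of B cell receptor signalling, and Kank2, a cytoskeletal adaptor, had called differences of 0.94, 1.04 and 1.0. Of the 7 other Gcnt2 probe sets, 1 above the median gene gave -0.0 and a dim one -0.68, and the mean over its probe sets gave 0.23, which did not pass. Urb2, a ribosome biogenesis gene, had one of 0.92. Agfg2 had one of 1.05, while another of its probe sets above an intensity of 16 gave -0.34 without passing. Cth, which makes cysteine from cystathionine, was noticed after its values were seen as a lower gene whose controls stood with the Jmjd2b knockdown, at 1860, 2110 and 2300 in the Jmjd2b arrays, 1750 to 2110 in the controls and 1040 and 1000 in the Jmjd2c arrays. Its called difference was -1.02 ± 0.12 (limma adjusted p = 0.0152).

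Housekeeping and chromatin lists held no call between the knockdowns. With 0.467% of all genes called, lists of this size can hold 0 by that share alone. For 15 cytosolic ribosomal protein genes the median was -0.01, for 23 of oxidative phosphorylation 0.03 and for 20 of glycolysis 0.01. Among 25 Polycomb genes 0 were called and the median was -0.04. Ezh2, the H3K27 methyltransferase, had a difference of 0.27 that did not pass. Enzymes of H3K9 and H3K36 methylation, the marks that KDM4 proteins act on, had 0 of 20 measured members called and a median of -0.03. The smallest p among them belonged to Nsd1, an H3K36 methyltransferase, with a difference of 0.45 that did not pass (limma adjusted p = 0.177). For Atf7ip, the brightest probe set gave 0.23 without passing. A dimmer one gave 0.74, which passed when all probe sets were tested (limma adjusted p = 0.0444). Of 14 genes of DNA methylation and TET oxidation 0 were called. Of 33 Hox genes 0 were called, with a median of -0.03. Within the set, the median was 0.05 for Hox genes and -0.02 for oxidative phosphorylation, both of opposite sign, and -0.11 for the H3K9 and H3K36 enzymes.

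The remaining lists also held no call, where 0.467% of all genes were called. Among signalling lists, the median was 0.17 for 15 genes of the LIF and STAT3 pathway, which sustains these cells in culture, -0.03 for 26 of the TGF-beta, Nodal and BMP pathways and -0.10 for 18 of the Notch pathway. Among stress and death lists, it was -0.22 for 19 p53 targets, -0.10 for 17 apoptosis regulators, 0.04 for 20 hypoxia genes and -0.05 for 22 chaperones of the endoplasmic reticulum. For 15 genes of cholesterol synthesis it was -0.24, for 18 of iron and metal handling 0.09 and for 12 of the RNA interference machinery, which processes hairpins, 0.03. The COMPASS and BAF chromatin complexes gave -0.01 over 23 genes, the 2-cell-like state 0.16 over 10 and endoderm -0.07 over 23. The median of all genes was 0.0. Within the set, the medians were -0.12 for the 2-cell-like state and 0.04 for COMPASS and BAF, both of opposite sign, and -0.38 for p53 targets, -0.25 for Notch, -0.18 for endoderm, -0.09 for cholesterol synthesis, 0.01 for hypoxia, 0.03 for iron handling and 0.07 for RNA interference.

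Lists without a call differed in how many members had an unadjusted p under 0.05 in limma, which over all genes held for 1098 higher and 1270 lower of 18193. FGF and ERK genes had 1 higher and 10 lower such members, YAP and TEAD targets 0 and 8, interferon response genes 2 and 8, and adhesion genes 0 and 6. The wider fibroblast list had 0 higher and 5 lower, endoderm 2 and 6, Polycomb 3 and 5, and TGF-beta, Nodal and BMP 1 and 4. More of the members were higher than lower for G2 and mitosis, with 5 and 1, and for glycolysis, with 5 and 2. Other JmjC demethylases, p53 targets, Notch genes and those of DNA methylation had 3 lower each and at most 1 higher. LIF and STAT3 genes, chaperones and ribosomal proteins had 0 in either direction, and every other list without a call had at most 3 in 1 direction.

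The 2 Jmjd2c arrays parted widely for genes chosen here because of that gap, so their values are a description. Plac8 was at 1190 in array 1 and 102 in array 2. Genes of this kind included Phlda2, Pou3f1 and the contractile gene Cnn1 (262 and 37.2), which were higher in array 1. Hecw2 (16.5 and 445), Plagl1 and Gata3 were higher in array 2. None of these genes was called between the knockdowns. For the 85 called genes, array 1 was nearer the Jmjd2b mean in 49 and array 2 in the others.

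**Figure D5:**
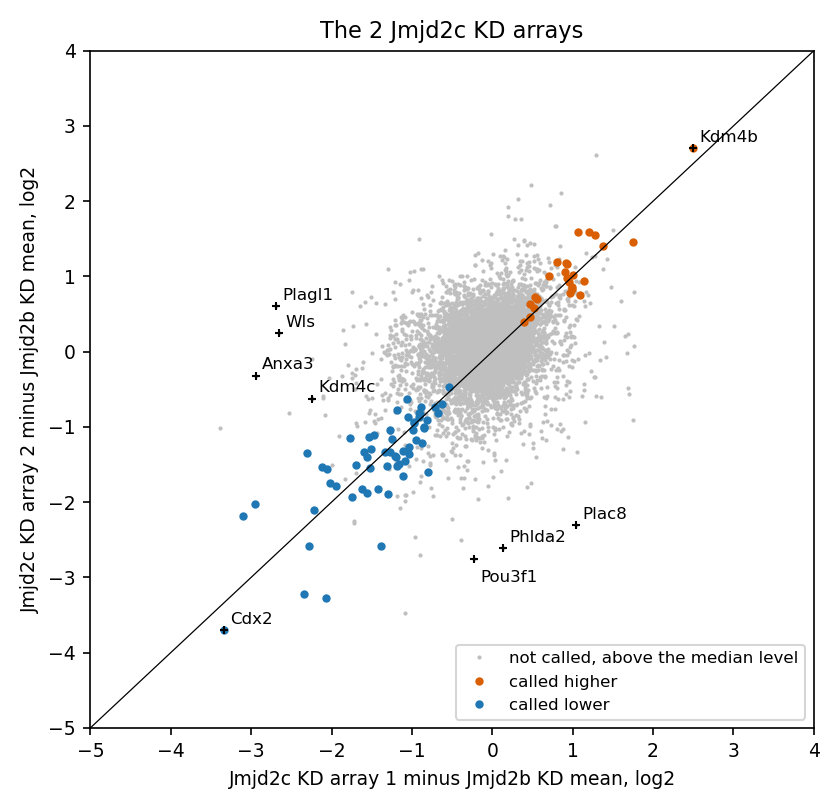
Difference of Jmjd2c array 1 (horizontal axis) and array 2 (vertical axis) from the Jmjd2b mean, both log2, 1 point per gene; grey points are genes above the median level that were not called, and the line marks equal differences. Called genes lie on the same side of 0 on both axes, as they must because their knockdown arrays do not overlap. Plagl1, Phlda2 and Plac8 lie far from the line.

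Called genes were spread over the chromosomes. Chromosome X held 8 called genes (2 higher and 6 lower) of 617 measured, which is 1.30%, and its median difference over genes above the median level was -0.06, the lowest of the autosomes and X. The highest was 0.03, on chromosome 19. Xist, the RNA that silences an X chromosome in female cells, was at 72.1, 60.0 and 106 against 87.4 and 60.5, below or near the median gene intensity of 103 in every array. The Y-linked gene Eif2s3y was at 1700, 1760 and 1810 in the Jmjd2b arrays and 2410 and 1830 in the Jmjd2c arrays, a difference of 0.26 that did not pass.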

How the data were processed

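Each sample gave 1 oligonucleotide array of biotinylated cRNA, per the labels' protocols. The authors deposited 1 linear intensity for each probe set on each array; their probe summary, background correction and scaling are not given in the sources used here. Of 45101 probe sets, 34945 had exactly 1 gene symbol in the platform annotation, and 34741 of these matched RefSeq (GRCm38.p6). No further normalization or filter was applied before taking log2(intensity + 16), an offset that makes differences of dim genes appear smaller. Group means of all 8 arrays were fitted in limma 3.58.1 (R 4.3.3; lmFit, eBayes with trend), two-sided, with Benjamini-Hochberg adjustment over all genes; the fit was tested on data with known answers. With 2 and 3 arrays, the number of arrays limits the precision. Tables and figures used Python 3.11.15, pandas 2.3.3 and matplotlib 3.10.9.

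The members and the 48 gene lists (932 of 1018 entries measured) were chosen with earlier results of these data known. Named were the KDM4 genes; the 15 largest called, non-overlapping differences in each direction whose higher knockdown mean exceeded the median gene; up to 4 members per list with the smallest p; and fixed pluripotency and lineage genes. Others are marked as noticed afterwards, or are further members of those lists given by value.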

Additional observations from a re-analysis of the deposited data

How the results depend on the processing

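All 85 called genes kept their direction under each alternative in which they were present, while the number called did not hold. For most alternatives the direction was fixed beforehand, because in all 85 both Jmjd2c arrays lay on 1 side of all Jmjd2b arrays. This covers other offsets, the fit without trend, fits with fewer arrays and the array set as a block. Against 85 (25 higher, 60 lower), limma called 136 with an offset of 64 (99 lower) and 157 when all probe sets were tested (38 higher, 119 lower). Only the 5 knockdown arrays gave 2 (0 higher, 2 lower), with 1866 genes at an unadjusted p under 0.05. Array type (a floor at 1 or not) as a block gave 4 (0 higher, 4 lower). The arrays without the floor gave 0 (0 higher, 0 lower; 1094 at an unadjusted p under 0.05). The array set as a block gave 5 (1 higher, 4 lower). These last fits use fewer arrays or residual degrees of freedom. Genes called higher numbered 39 among genes above the median level, 50 after quantile normalization and 14 without trend. Leaving out 1 array gave 2 to 788 genes, 0 to 379 higher and 2 to 462 lower.

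The Kdm4b difference was 2.60 but not called with only the knockdown arrays (adjusted p 0.0996), 2.46 with array type as a block (0.0601) and 2.58 without floored arrays (0.663), and ran from 2.35 to 2.86 with 1 array left out. For Kdm4c the range was -2.24 to -0.62, and both ends came from fits with a lone Jmjd2c array. The replicate number as a block gave 145 genes (49 higher, 96 lower), 65 of them among the 85. Deviations of same-numbered knockdown arrays correlated at -0.0596 and 0.141 and those of other pairs at -0.166 to 0.166. With 2 Jmjd2c arrays the deviations are equal and opposite, so these correlations cannot decide whether the numbers mark a pairing. The main fit used no pairing. Probe sets near the floor limit what can be seen: 1 called gene, Cdc42ep1, was under 16 in both Jmjd2c arrays, and 75 were above it on every array.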
